A study of Bos taurus with 2 samples.

Results

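Globins are the heme proteins that bind oxygen in red cells and in tissues, and this account follows the globin genes in the whole blood of Holstein cattle (Bos taurus). The genes were 10 named globins, HBA, HBA1, HBB, HBG, HBE1, HBM, HBQ1, MB, CYGB and NGB, and their probes were those that carry such a name on the array or whose RefSeq accession belongs to one of these genes. Of the 10 genes 9 had a probe, among 16959 genes with a probe in all, and HBA1 had none under its own name. These 9 genes had 19 probes, 15 named through a RefSeq accession and 4 through the array's gene name. All 19 probes were printed once on the array.

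The study set 1 blood specimen of low feed efficiency against 1 of high feed efficiency, and each specimen gave 1 array of Cy3-labelled RNA. An animal of low feed efficiency has a high residual feed intake, that is, it eats more than predicted from its weight and yield. The labels give no age, no treatment and no number of animals behind a specimen. Blood leukocyte markers were present as the label says, with 10 of 10 above background on both arrays (PTPRC, ITGB2 and CD14 among them). Each array had 43653 distinct probes, and 10339 genes had a probe above background on both. With 1 array in each group there is no replicate check, so no test and no p-value is given, and the number of arrays limits the precision.

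An adult haemoglobin molecule holds a pair of alpha chains, from HBA and HBA1, and a pair of beta chains, from HBB, each with a heme group. Other genes of both clusters serve earlier stages of life: HBE1 encodes an embryonic beta-like chain and HBG the fetal beta-like chain of cattle. HBM and HBQ1 are alpha-like genes transcribed in red cell precursors, with no settled role in haemoglobin. MB encodes myoglobin, the oxygen store of striated muscle, CYGB the cytoglobin of fibroblasts and related cells, and NGB the neuroglobin of nerve cells. Circulating red cells of adult mammals lack a nucleus, so globin RNA in blood comes chiefly from reticulocytes, the youngest red cells, which are scarce in the blood of healthy cattle.

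In RefSeq's genes on the cattle assembly ARS-UCD2.0, which served for names and neighbours, HBM, HBA, HBA1 and HBQ1 lie side by side in this order in the alpha cluster. HBE1, HBB and HBG lie in this order in the beta cluster, with other beta-like genes and pseudogenes between them. The sources used here give no build for the array's design, so no coordinates are printed.

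The intensities below are pixel medians of a spot minus the scanner software's background, before scaling. The background threshold was 10.9 on both arrays, which is the median of the negative control spots plus 3 robust SDs. The low efficiency array was brighter, with a 75th percentile over probes of 98 against 81, a ratio of 1.21. Each intensity was therefore divided by its array's 75th percentile before taking log2. A difference is the log2 value of the low-efficiency array minus that of the high-efficiency array. Probes differ in how strongly they bind, so the intensity of one probe was not set against that of another. No globin spot had a saturated pixel on either array (0% of pixels in all 19 probes), so no globin value was limited by the top of the scanner's range.

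HBA, HBB and HBG, whose chains make up adult and fetal haemoglobin, had small positive differences. Their log2 differences were 0.13 for HBA, 0.26 for HBB and 0.33 for HBG, which are 1.10-fold, 1.20-fold and 1.25-fold. HBM had 0.002, HBQ1 -0.14 and HBE1, close to background, -0.36. Among the globins of other tissues, CYGB and NGB had 0.13 and 0.10, while MB had -2.36, a value carried by 1 of its 2 probes. Of the 9 measured globin genes 1, MB, was at least 2-fold apart, and it was lower in low feed efficiency. Over all measured genes 0.938% were at least 2-fold apart, with 0.571% lower and 0.368% higher in low feed efficiency. The median over the 9 globin genes was 0.10, against -0.04 over all genes, and 6 of the 9 lay above the median of all genes.

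**Figure D1:**
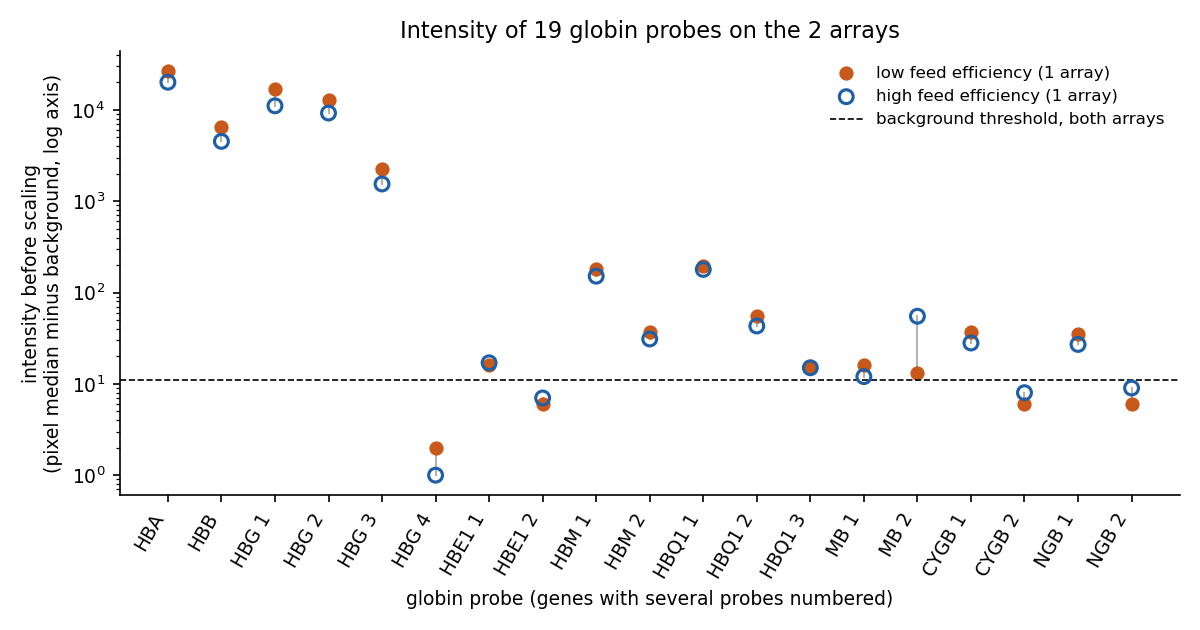
Intensity of each of the 19 globin probes before scaling (log axis) in low (filled) and high (open) feed efficiency, 1 array each, with the background threshold of 10.9 as a dashed line. The HBA, HBB and 3 of the 4 HBG probes read from 1543 to 26648, and 4 probes lay below the threshold on both arrays.

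HBA, the gene of the adult alpha chain, had 1 probe (A_73_115494). It read 26648 on the low-efficiency and 20058 on the high-efficiency array. Over the 80 pixels of the spot, the pixel SD was 3930 around a mean of 26497 in low feed efficiency and 3574 around 19925 in high feed efficiency. The pixel median took 40.7% and 30.6% of the scanner's range. After scaling, the values were 272 and 248 times the array's 75th percentile. The ratio of the HBA intensities was 1.33 before scaling and 1.10 after it, and scaling on 7 spike-in controls in place of the 75th percentile gave a log2 difference of 0.48. The HBA spots were left without a flag by the scanner software on both arrays, and so gave no value where only spots flagged good were used. HBA and HBA1 are near-identical neighbours, and the array's annotation of this probe lists 2 Ensembl transcripts, so what is read as HBA may hold RNA of both.

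HBB, the gene of the adult beta chain, also had 1 probe (A_73_120596), at 6549 on the low-efficiency and 4517 on the high-efficiency array, flagged good on both. Its scaled values were 66.8 and 55.8. This difference of 0.26 was larger than the spread of differences between replicate spots of one bright probe, an SD of 0.10 (12 probes with 47 spots in all). The difference of HBA, 0.13, was close to this SD. The SD of 0.10 covers the error between spots of an array, and neither labelling, hybridisation nor animals. Within an array, the 32 spots of each spike-in control had log2 SDs of 0.05 to 0.19 in high feed efficiency. In low feed efficiency these SDs were 0.12 to 0.30, with 1 control at 1.22. They are SDs of values on 1 array and not of differences between arrays, so they are not the same measure as the 0.10.

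HBG, the gene of the fetal beta-like chain, had 4 probes, of which the 3 named by accession were bright. The first read 16781 against 11066, the next 12934 against 9226 and the third 2261 against 1543, each low against high feed efficiency. Their differences were 0.33, 0.21 and 0.28, so the 3 probes lay on the same side of 0. The fourth probe, designed on an expressed sequence tag from embryonic tissue, read 2 and 1 and was flagged as not found on both arrays. The array's annotation lists a second RefSeq transcript for each of the 3 bright probes, so they may read more than 1 beta-like gene. As 3 probes to 1 gene share the same RNA, they show the error between probes and not that between animals.

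HBA, HBB and HBG were above 0 under every processing alternative in which they were measured, from 0.10 to 0.48 for HBA, from 0.24 to 0.60 for HBB and from 0.25 to 0.67 for HBG. The top of each range came from spike-in scaling, which raised every difference by 0.34 and the median of all genes to 0.30. Relative to the median of all genes, which such a rescaling leaves in place, HBA was at 0.17, HBB at 0.30 and HBG at 0.36.

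Bright genes as a class lay the other way. Of 1477 genes with intensities above 1000 on both arrays, 26.3% were above 0, their median was -0.14, and their 5th and 95th percentiles were -0.53 and 0.27. This limit of 1000 was chosen after the values were seen. Of these bright genes 12.8% had a difference at least as high as HBA, 5.28% one at least as high as HBB, and 2.84% one at least as high as the brightest HBG probe. For the other bright HBG probes the shares were 7.31% and 4.60%. Loess normalization, which removes such a trend with brightness, gave 0.28 for HBA, 0.38 for HBB and 0.46 for HBG. Whether the trend with brightness has a part in the globin differences was not tested.

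**Figure D2:**
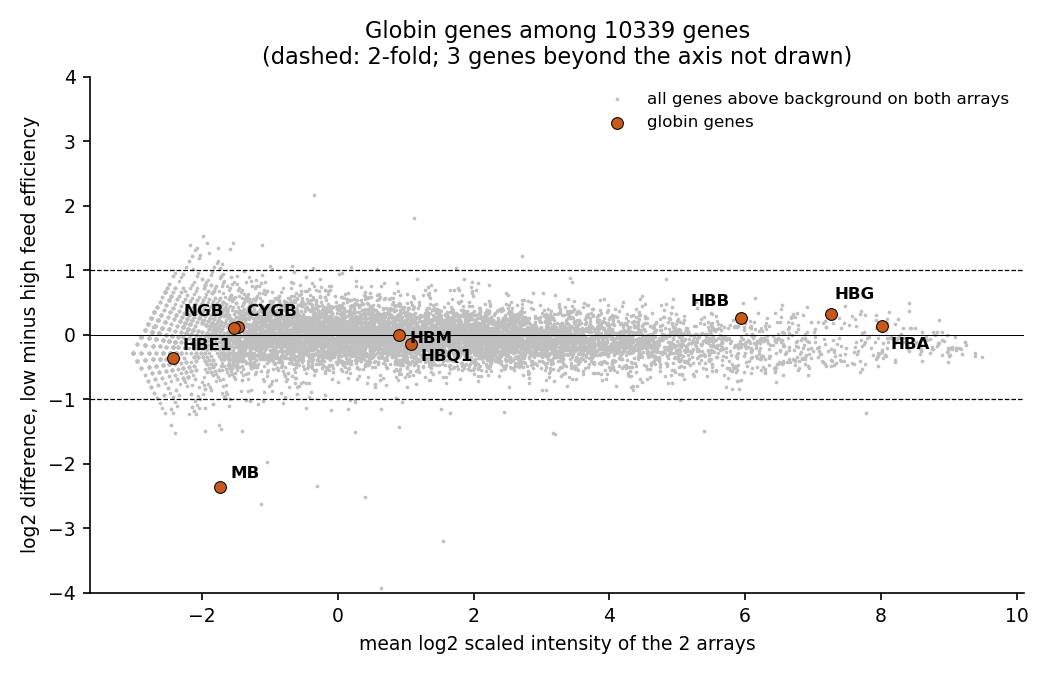
Log2 difference (low-efficiency minus high-efficiency array) against the mean log2 scaled intensity for 10339 genes (grey) and the 9 globin genes (orange), with 2-fold as dashed lines and 3 genes beyond the axis left out. HBA, HBB and HBG lie in the upper part of the band of bright genes, at 0.13, 0.26 and 0.33, and MB lies below the band at -2.36.

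Spots printed near the globin spots had median differences on both sides of 0. Among the 139 to 246 probe spots measured within 10 rows and 10 columns of a globin spot, the median log2 difference ran from -0.16 to 0.09 over the 19 globin positions. With the local median taken off, HBA was at 0.13, HBB at 0.27 and the 3 bright HBG probes at 0.29, 0.30 and 0.27. The brightest HBQ1 probe moved from -0.14 to -0.05, and the dimmest HBQ1 probe from -0.27 to -0.35.

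HBE1, the gene of the embryonic beta-like chain, was read close to background. Its RefSeq probe had 16 on the low-efficiency and 17 on the high-efficiency array, and its other probe had 6 and 7, under the threshold on both arrays. The difference of the RefSeq probe was -0.36, against an SD of 0.23 over replicate spots of dim probes (24 probes with 91 spots). The readings differed by 1 intensity unit before scaling, and the scaling itself lowers every log2 difference by 0.27 (the log2 ratio of the 75th percentiles). It was -0.18 with normexp, a model-based background correction, and -0.02 with spike-in scaling.

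The alpha-like genes HBM and HBQ1 were measured by several probes each. HBM read 183 on the low-efficiency and 151 on the high-efficiency array at one probe and 37 and 31 at the other, all flagged good. The differences of 0.002 and -0.02 were smaller than the spread of replicate spots. Under 5 of 16 alternatives the HBM value was below 0, and with spike-in scaling it was 0.34. HBQ1 read 196 against 179, 56 against 43 and 15 against 15 at its 3 probes, low against high feed efficiency. Their differences of -0.14, 0.11 and -0.27 lay on both sides of 0. The -0.27 came from the scaling alone, as the readings of 15 were equal and close to background. The 0.11 was smaller than the SD of 0.23 over replicate spots of dim probes. The brightest HBQ1 probe was at 0.20 with spike-in scaling.

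**Figure D3:**
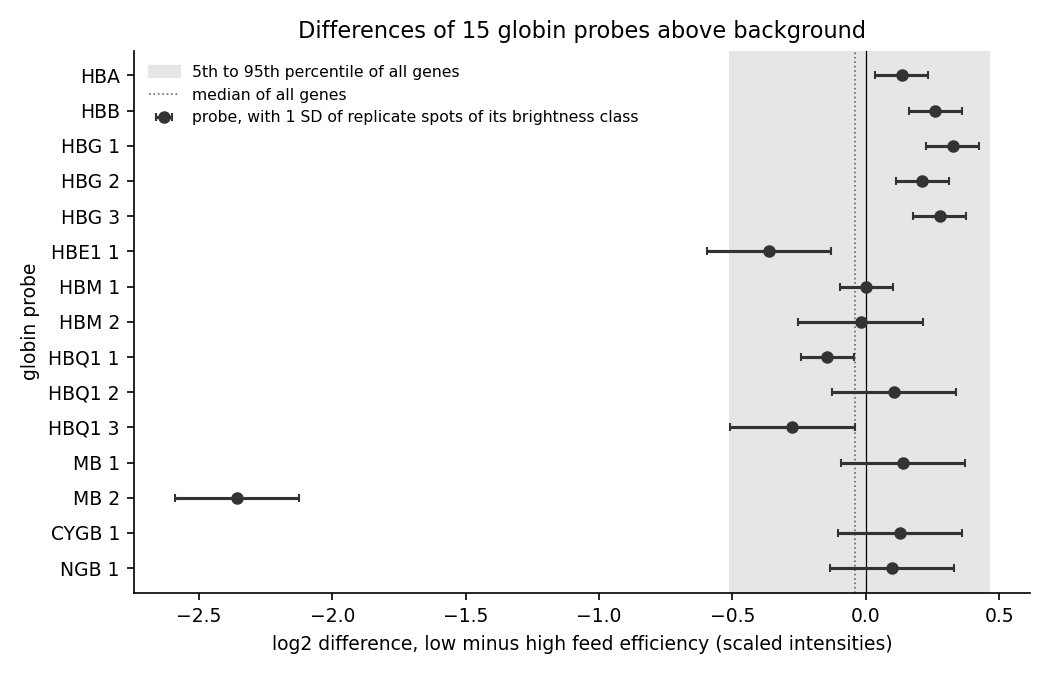
Log2 difference (low-efficiency minus high-efficiency array) for the 15 globin probes above background on both arrays, with bars of 1 SD over replicate spots of bright (0.10) or dim (0.23) probes. The grey band runs from the 5th to the 95th percentile of all genes, -0.51 to 0.46, and holds every globin probe except 1 MB probe at -2.36.

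MB, the myoglobin gene, was the globin with the widest gap between probes. The probe brighter in high feed efficiency (A_73_119736) read 13 on the low-efficiency and 55 on the high-efficiency array, which is 5.12-fold higher in high feed efficiency after scaling. The other probe (A_73_P154543), named by the same RefSeq accession, read 16 and 12, a difference of 0.14. In low feed efficiency the first spot covered 32 pixels in place of the usual 80, its pixel CV was 60%, and it carried no flag. In high feed efficiency the spot covered 80 pixels, had a CV of 36% and was flagged good. Spots of at most 32 pixels made up 9.11% of probe spots in low feed efficiency, and a CV of 60% or more was found in 1.83% of those above background. The MB value was -0.82 with normexp, under 2-fold, and -1.11 as the mean of both probes, and no MB probe was measured where only spots flagged good, or only probes above 4 times the threshold, were used. The part of the small spot in this difference was not tested.

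Markers of striated muscle, where MB is strongly expressed, were mostly below background. Of 9 such genes on the array 3 were above background on each array, ACTA1, DES and MYH7, and none of them was 2-fold apart (-0.35, -0.45 and -0.18). ACTA1 is the actin of skeletal muscle and DES the muscle intermediate filament. CKM, MYH2, TNNT1, TNNI2, MYL2 and MYBPC1, which mark skeletal or heart muscle, were below the threshold on both arrays, CKM at 5 and 0. Summed over the brightest probe of each marker, the scaled intensity was 16.8 on the low-efficiency and 22.4 on the high-efficiency array. These sums were mostly DES, at 1092 against 1232 before scaling, and ACTA1, at 453 against 477 (low against high feed efficiency).

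CYGB and NGB were dim. CYGB read 37 on the low-efficiency and 28 on the high-efficiency array at one probe, flagged good on both, and 6 and 8, under the threshold, at the other. NGB read 35 and 27 at its RefSeq probe, flagged good on both, and 6 and 9 at a probe from an expressed sequence tag, under the threshold and flagged as not found. The differences of 0.13 and 0.10 were smaller than the SD over replicate spots of dim probes, and both turned negative under 2 of 15 alternatives (to -0.06 and -0.03 with normexp). In both genes the 2 probes disagree on whether there was a signal above background at all.

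Marker genes of the tissues best known for these globins were read in part. Of 8 nervous system markers 4 were above background on each array, with a summed scaled intensity of 2.23 on the low-efficiency and 2.17 on the high-efficiency array, and STMN2, GFAP, NEFL and SYT1 were below the threshold on both. SNAP25, a nerve terminal protein gene, had 0.26, SYN1 -0.27 and MBP of myelin 0.16. Of 6 connective tissue markers 5 were above background on the low-efficiency and 4 on the high-efficiency array, at summed values of 11.8 and 14.8, with LUM below on both. The collagen gene COL3A1 had -0.37 and the proteoglycan gene DCN -0.36, with the 3 DCN probes between -0.41 and 0.18.

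Other genes of the red cell gave the setting for the haemoglobin genes. With 1 bulk sample per group, a difference in the number of reticulocytes and one in the RNA per reticulocyte cannot be told apart. The lists were chosen with earlier results of these data known, and their counts are read beside the background of 0.938%. In the heme synthesis list 9 of 10 genes were measured and 1 was 2-fold lower, ALAS2, the erythroid enzyme of the first step, at 112 against 248. The median of this list was -0.12. CPOX, a later step, had -0.50 near background (12 against 14), and the brightest members, ALAS1 and UROD, had -0.08 and -0.11. FECH, which inserts the iron in the last step of heme synthesis, was below background on both arrays. ALAS2, at -1.42 from 1 measured probe, lay on the opposite side of 0 from HBA, HBB and HBG. MB, HBE1 and HBQ1 were also below 0, but MB and HBQ1 had probes on both sides of 0. HBE1 was close to background. HBZ, a globin gene outside the 10 named ones, read 4429 on the low-efficiency and 5340 on the high-efficiency array. Its difference of -0.54 lay on the same side of 0 as ALAS2, while HBE4, another such gene, had 0.39. HBZ and HBE4 were chosen after their values were seen.

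Regulators of globin transcription had 10 of 12 genes measured, none 2-fold apart, and a median of -0.15. GATA1, the erythroid master regulator also used in megakaryocytes, read 58 on the low-efficiency and 72 on the high-efficiency array, a difference of -0.59. GFI1B, which acts in the same lineages, had -0.55, with its 3 probes between -0.55 and -0.07. NFE2, which is also made by other blood cells, had 0.18, and LMO2 had 0.03. KLF1, the activator of the adult beta globin gene, was below background on both arrays. Platelet markers, which share GATA1 and GFI1B as regulators, had a median of -0.25 over 4 measured genes. The integrin ITGA2B was at -0.45 with its other probe at -0.22, and TUBB1 at -0.44 with its other probe at -0.12. PPBP was at 0.18 and PF4 at -0.05. The part of platelets in the GATA1 and GFI1B values was not tested.

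Among haemoglobin partners and red cell enzymes 10 of 11 genes were measured, none 2-fold apart, with a median of -0.14. AHSP, the chaperone that holds free alpha chains, read 94 on the low-efficiency and 100 on the high-efficiency array and had a difference of -0.36, with its other probe at -0.33. This is the opposite side of 0 from HBA, although with spike-in scaling all differences move up by 0.34. The carbonic anhydrase gene CA2 had 0.33, the peroxiredoxin gene PRDX2 -0.20 and CYB5R3, whose product keeps heme iron reduced, -0.14. CA1 was below background on both arrays.

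**Figure D4:**
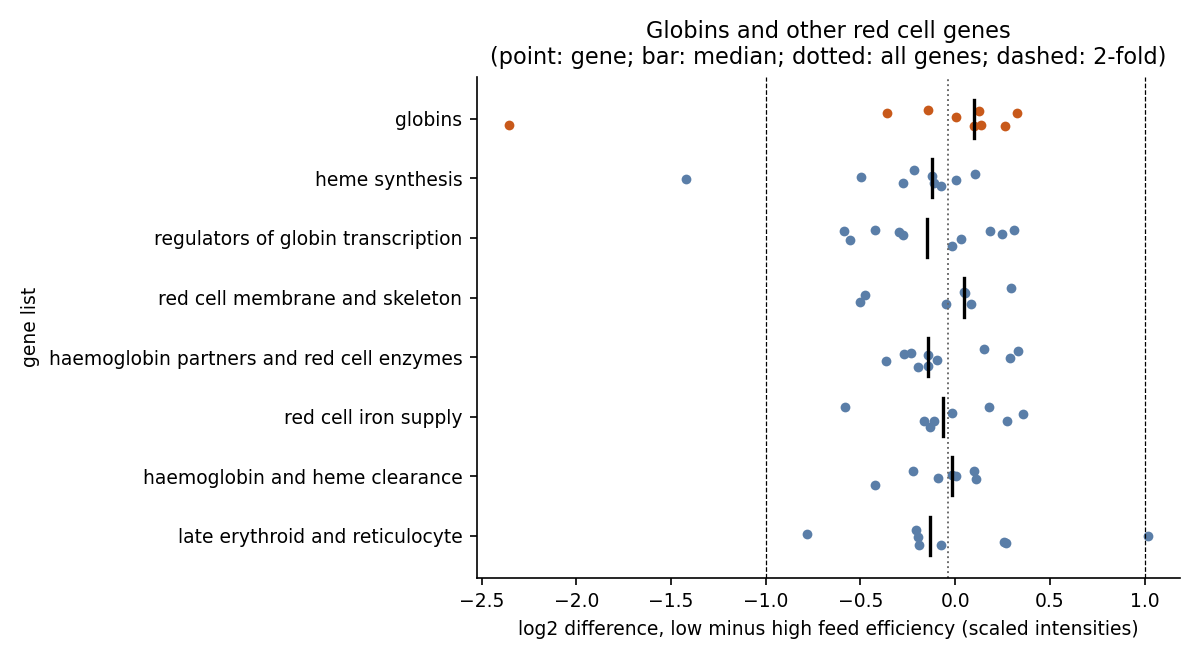
Log2 difference (low-efficiency minus high-efficiency array) for each measured globin gene (orange) and each measured gene of 7 red cell lists (blue), with list medians as bars, the median of all genes dotted and 2-fold dashed. The globin median is 0.10, and the list medians run from -0.15 to 0.05.

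The red cell membrane list was read only in part. Of 14 genes on the array 7 were measured, none 2-fold apart, and the median was 0.05. SLC4A1, the anion exchanger that is the main membrane protein of red cells, read 4 and 8, and ANK1, TMOD1 and RHAG were likewise below background on both arrays. EPB42 and KEL were above background only on the high-efficiency array, at 7 against 14 and 6 against 17 (low against high feed efficiency). DMTN and GYPC, which are also made in other blood cells, were the brightest members and the farthest from 0, at -0.50 and -0.47. DMTN had 1 measured probe, and the other GYPC probe had -0.13.

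Red cell iron supply had 8 of 10 genes measured, none 2-fold apart, and a median of -0.06. The mitochondrial iron importer SLC25A37 had 0.36 with 3 probes between -0.09 and 0.36, SLC11A2 -0.58 near background, and the ferritin genes FTH1 and FTL -0.16 and -0.13. Haemoglobin and heme clearance had 7 of 8 genes measured, none 2-fold apart, and a median of -0.01. HPX, the heme carrier of plasma, had -0.42, the heme oxygenase gene HMOX1 0.003 and the biliverdin reductase gene BLVRB -0.22. Late erythroid and reticulocyte genes had 8 of 9 measured, with 1 at least 2-fold higher and a median of -0.13. That gene was TRIM10 with 1.02 at 71 against 29, and its other probe had -0.12. SELENBP1 had -0.78 near background (19 against 27), BNIP3L, which clears mitochondria from reticulocytes, 0.26, and EPOR, the erythropoietin receptor gene, -0.19.

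Markers of leukocytes and platelets gave the signal of the other blood cells. Summed scaled intensities were 757 on the low-efficiency and 728 on the high-efficiency array for 10 leukocyte markers, and 121 and 126 for 4 platelet markers. The platelet sums were mostly PF4, at 11351 against 9746 before scaling, while the platelet median was -0.25 as given above. Among leukocyte markers ITGB2 had -0.30, LYZ 0.32 with its other probe at -0.05, and S100A8 0.10, and none of the 10 was 2-fold apart.

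**Figure D5:**
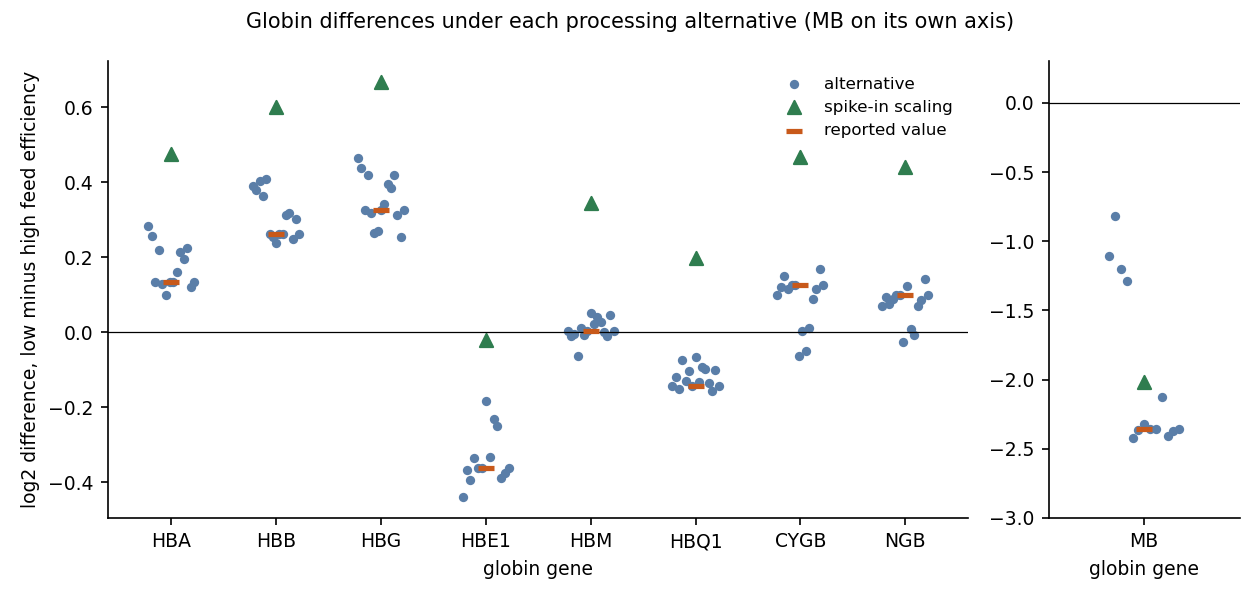
Log2 difference (low-efficiency minus high-efficiency array) of each globin gene as reported (orange bar) and under each processing alternative (blue points, with spike-in scaling as green triangles), MB on an axis of its own. HBA, HBB and HBG stay above 0 and MB below 0 in all of these, while HBM, HBQ1, CYGB and NGB take either sign.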

How the data were processed

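Whole blood RNA of 2 specimens was hybridised to a bovine Agilent oligonucleotide array, 1 array each. Both arrays share a slide and a scan, per the file headers. The deposited scanner files hold spot intensities at 532 nm, written by GenePix Pro 6.1.0.4 with a background of 25 taken from negative controls, per the file headers. Agilent Feature Extraction is named in the submitters' processing notes. The percent of saturated pixels and the flag score (100 good, 0 unflagged, -50 not found) are from the same deposited files.

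Control spots were left out, and so were probe spots flagged as not found although above background (408 in low, 283 in high feed efficiency; no globin spot), which kept 43096 probes. Background-subtracted pixel medians were divided by each array's 75th percentile and taken to log2. Where several probes of a gene passed on both arrays, the brightest stood for the gene. Probes were named through RefSeq accession, symbol or synonym (ARS-UCD2.0).

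The authors' deposited table of log2 values matched the ranks of the scanner values after a shift by 1 row and not before (rho of Spearman 0.077 and 0.072 as deposited, 1.00 for both when shifted, 43652 rows). It served as an alternative, in the shifted form; its scale, its centring and its normalization are not given in the sources used here, and the median is 4.34 in both columns.

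The globin genes and the gene lists were chosen with earlier results of these data known. Named genes were all globin probes and, of each list, the 2 measured members farthest from 0 and the 2 brightest; MYH7, PTPRC, CD14, EPB42, KEL and list members below background were added after their values were seen. A few list members are not reported here by name. Differences were counted at 2-fold with no test. Alternatives covered background correction (normexp with an offset of 50, limma 3.58.1), pixel mean, scaling, quantile and loess normalization, flags, saturation, filters on dim probes and the mean over probes. The pixel mean without background subtraction and the local centring were added after seeing the data. Steps were tested on simulated data.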

Additional observations from a re-analysis of the deposited data

How the results depend on the processing

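MB stayed 2-fold or more lower on the low-efficiency array under every alternative but 3: normexp, only spots flagged good and 4 times the background threshold each left 0 globin genes 2-fold apart, the last 2 because no MB probe passed. The count over all genes was 97. It became 602 at 1.5-fold, 10 at 4-fold, 1737 with no filter on dim probes, 26 at 4 times the threshold, 22 with only spots flagged good, 22 with the pixel median without background subtraction and 204 with spike-in scaling (184 higher, 20 lower, in place of 38 and 59). The other alternatives gave 70 to 140. HBA, HBB, HBG, HBE1 and MB took no opposite sign under 14 to 16 alternatives each; HBM did under 5, CYGB and NGB under 2 and HBQ1 under 1. HBE1, MB, CYGB and NGB were read at most 55 units above background, where a few units decide the value. No paired analysis was possible because each group has 1 array.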

Other observations

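The array holds probes of further globin genes that the names above do not cover, chosen here after their values were seen. HBZ, the embryonic alpha-like gene of the alpha cluster, separated from HBM by a pseudogene, read 4429 on the low-efficiency and 5340 on the high-efficiency array, flagged good on both, a log2 difference of -0.54. It was negative under all 14 alternatives run on it, from -0.62 to -0.20. HBE4, an embryonic beta-like gene next to HBE1, read 918 on the low-efficiency and 581 on the high-efficiency array, a difference of 0.39, and was positive under all 13 alternatives, from 0.34 to 0.73. So the probes of both embryonic genes read well above background in this blood, on opposite sides of 0, while HBE1 was near background. Which globin copies these probes match could not be checked, so they may also read other globin genes. The HBZ probe was named from an Ensembl transcript, and the spot of HBE4 was not flagged good in high feed efficiency.

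A predicted gene, which the array calls a fetal beta-like subunit, read 27 on the low-efficiency and 41 on the high-efficiency array. Its difference of -0.88 stayed between -0.89 and -0.40 under 13 alternatives. This value rests on 1 dim probe, while the 3 bright HBG probes had 0.21 to 0.33. The embryonic gene HBE2 read 7 and 9, the androglobin gene ADGB 2 and 2, and a probe that the array describes only as similar to the beta chain read 3 and 4, all under the threshold on both arrays.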
